A study of Mus musculus with 9 samples.

Results

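The 10 genes described here are those of T cells and of cytotoxic lymphocytes in mouse colon. They were chosen by name, with earlier results of these data known: the antigen receptor chain Cd3e, the coreceptors Cd4 and Cd8a, the regulatory and checkpoint genes Foxp3, Ctla4 and Pdcd1, the granule genes Gzma, Gzmb and Prf1, and the cytokine Ifng. All 10 were among the 21498 gene symbols measured, and 9 of them, all but Ifng, passed the filter on low values that left 15278 genes for testing. The samples were colorectal tissue of 9 male ICR mice, an outbred strain, which were 5 weeks old at the start and were killed at the end of week 18. Mice of the Control group (n = 3) received neither carcinogen, DSS nor antibody, and their tissue was labelled normal colorectal mucosa. The mice of the AOM/DSS + IgG Ab group (n = 3, IgG Ab below) and of the AOM/DSS + anti-S100a9 Ab group (n = 3, anti-S100a9 Ab below) received 1 intraperitoneal dose of 10 mg/kg azoxymethane (AOM), a colon carcinogen, and then dextran sulfate sodium (DSS), a polymer that damages the gut lining, with their water, in a first cycle of 7 days at 2% and further cycles of 5 days at 1.5%, 3 cycles in all. They were given 1.5 mg/kg of IgG as a negative control antibody, or of a rabbit polyclonal antibody raised against full-length mouse S100a9, intravenously every 2 days during the DSS cycles. Tissue of both AOM/DSS groups was labelled colorectal adenocarcinoma, so by the labels Control differs from them in tissue as well as in carcinogen, DSS and antibody, and these cannot be told apart. The paper, however, calls the tissue of the anti-S100a9 Ab group colon mucosa and that of the IgG Ab group colon adenocarcinoma. The AOM/DSS groups may thus differ in tissue as well as in antibody, which cannot be told apart either. No group received AOM/DSS without an antibody.

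T cells recognise antigen through a receptor that signals through the CD3 chains, and the CD4 and CD8 coreceptors divide them into helper and killer lineages. Regulatory T cells carry the transcription factor Foxp3 and restrain other T cells, while CTLA-4 and PD-1 are inhibitory receptors that appear on T cells after activation. Cytotoxic T cells and natural killer cells kill by releasing granules, in which perforin opens the target membrane and granzymes act as proteases inside the target. Interferon gamma, which both cell types secrete, activates macrophages and raises antigen presentation. The colon holds such cells within its epithelium, in the lamina propria and in lymphoid follicles.

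Among the 10 genes, Gzma and Cd4 carried the differences between groups that passed the test. Gzma was 4.55-fold higher in IgG Ab than in Control tissue and fell to 0.126 of the IgG Ab level with anti-S100a9 Ab, on the log2(FPKM + 0.1) scale. Cd4 was 4.79-fold higher with anti-S100a9 Ab than with IgG Ab, while Cd3e, the receptor chain that all T cells share, did not pass in any comparison. FPKM is the number of fragments scaled by transcript length and by sequencing depth, groups were compared with limma across all 15278 genes, and a gene was called at a Benjamini-Hochberg adjusted p under 0.05. In IgG Ab against Control, 1 of 9 tested members was called (Gzma, higher), where 11.2% of all genes were called, 8.18% higher and 3.01% lower. In anti-S100a9 Ab against IgG Ab, 2 of 9 were called (Cd4 higher, Gzma lower), where 21.1% of all genes were called, 6.72% higher and 14.4% lower. In anti-S100a9 Ab against Control, limma called 0 of 9 members, and 1, Cd4, had an unadjusted p under 0.05, against 0.0131% of all genes by the adjusted and 16% by the unadjusted p. The members' shares in the first and second of these were thus near those of all genes. By the thresholds used in the study, an unadjusted p under 0.05 with more than 2-fold change, 2 members passed in the first comparison (Gzma and Ctla4), 2 in the second (Cd4 and Gzma) and 1 in the third (Cd4), beside 13.6%, 16% and 3.15% of all genes. The median log2 fold change of the 9 members was 0.87, -0.31 and 0.31 in the same order, beside 0.09, -0.06 and 0.04 over all genes. The 3 comparisons share groups, so they are not independent of each other.

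**Figure D1:**
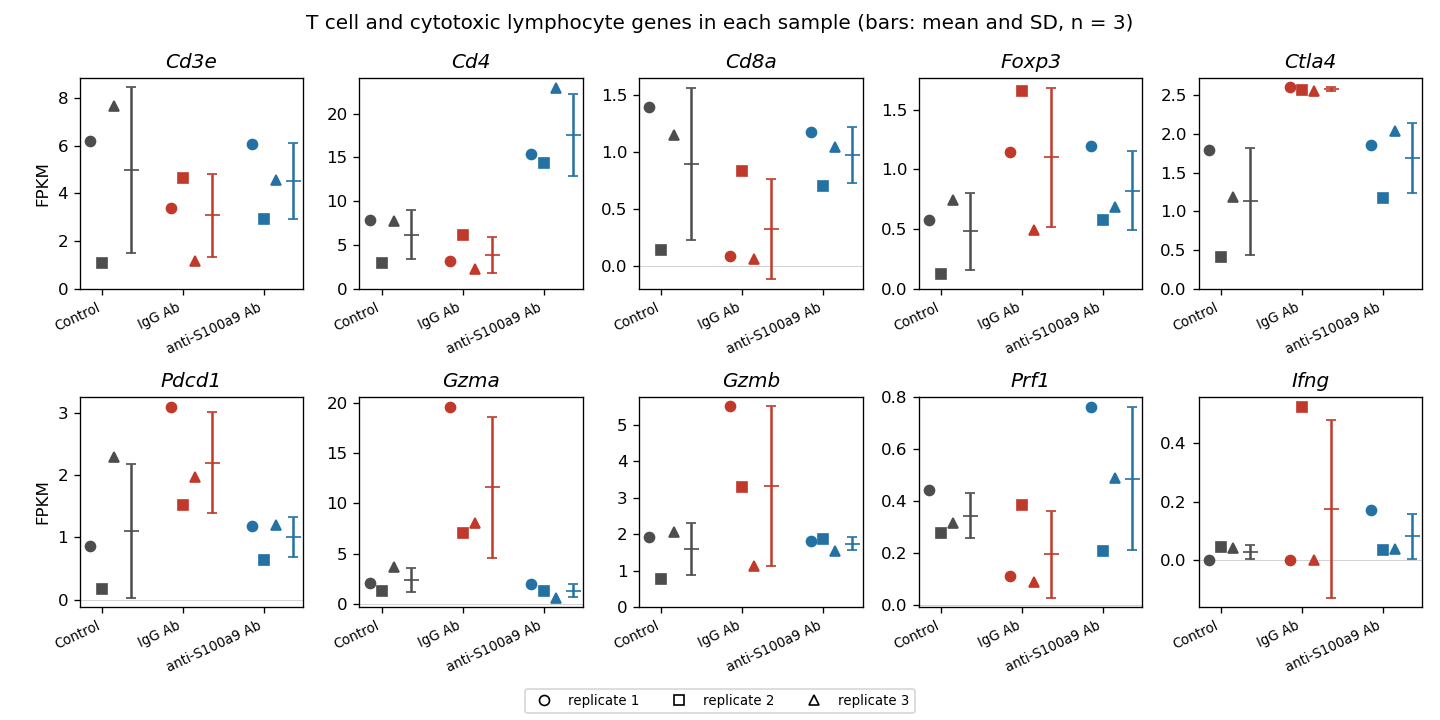
FPKM (vertical axis, a separate linear scale in each panel) of the 10 genes in each of the 9 samples, with circle, square and triangle for replicates 1, 2 and 3 of each group and bars for the mean and SD of the 3. All IgG Ab samples of Gzma (7.08 to 19.6 FPKM) sit above all others (at most 3.68 FPKM), and all anti-S100a9 Ab samples of Cd4 (14.3 to 23.0 FPKM) sit above all others (at most 7.83 FPKM).

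Libraries of the same group differed widely in their T cell markers. From the steps between their lowest values, 1 fragment on 1 kb of transcript was estimated to be worth 0.0298 to 0.0393 FPKM (for fragments of 200 bases), with depths of 0.853 to 1.12 relative to Control replicate 1. The intestinal epithelium list (10 genes, among them Epcam, Vil1 and Cdx2) was high in all libraries, with summed levels of 4124 to 8258 FPKM, and 6 smooth muscle genes summed to 518 to 4074 FPKM, so smooth muscle genes were expressed in tissue labelled mucosa and in tissue labelled adenocarcinoma. Summed over 7 T cell markers, Control held 45.2, 9.05 and 69.9 FPKM, IgG Ab 37.0, 40.9 and 11.9 FPKM, and anti-S100a9 Ab 45.9, 19.0 and 40.5 FPKM in replicates 1, 2 and 3. The lowest library of each group, Control 2, IgG Ab 3 and anti-S100a9 Ab 2, thus held less than the other libraries of its group, and the groups overlapped. None of the 7 T cell markers was called in any comparison (0 of 7, with 0 of 7 at an unadjusted p under 0.05). In bulk tissue, fewer cells of a type and less RNA per cell cannot be told apart.

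**Figure D2:**
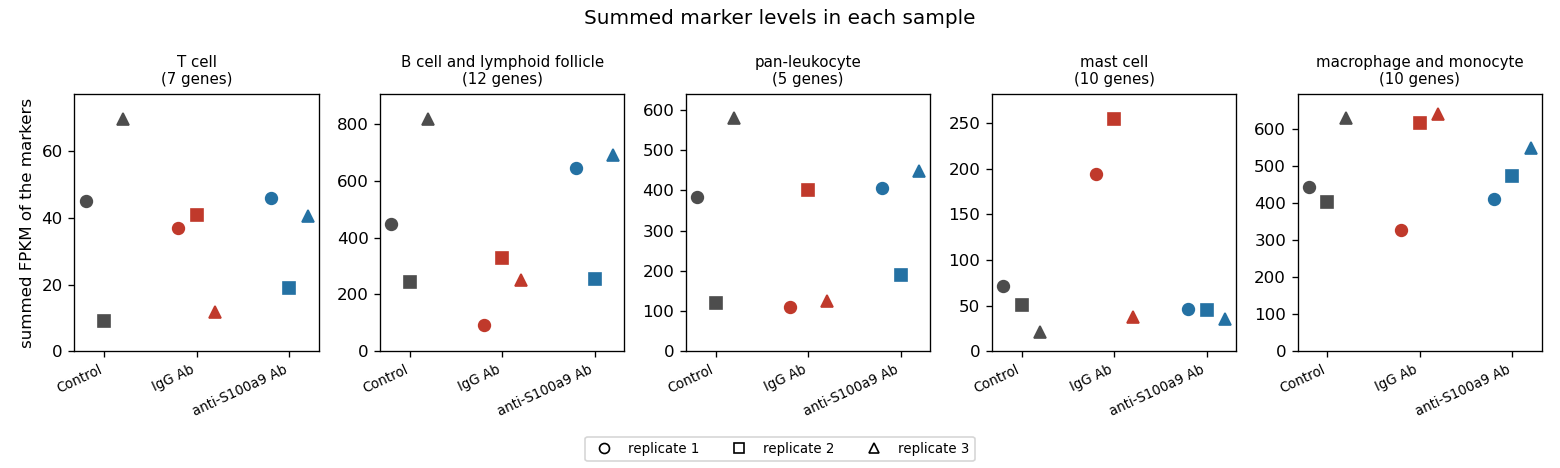
Summed FPKM (vertical axis, linear, from 0) of 5 marker lists in each of the 9 samples, with circle, square and triangle for replicates 1, 2 and 3. The T cell sum is lowest in Control 2 (9.05 FPKM), the pan-leukocyte sum is low in Control 2, IgG Ab 1 and IgG Ab 3 (110 to 124 FPKM), and the mast cell sum is highest in IgG Ab 1 and 2 (195 and 255 FPKM).

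Cd3e (chr9:44998740-45009627, GRCm38) encodes the epsilon chain of CD3, and it is 1 of the 7 T cell markers summed above. It stood at 6.20, 1.05 and 7.67 FPKM in Control replicates 1, 2 and 3. The IgG Ab samples held 3.39, 4.64 and 1.17 FPKM, and the anti-S100a9 Ab samples 6.07, 2.92 and 4.55 FPKM. The 3 groups overlapped, and the spread within Control alone covered 7.29-fold, which was also the range over all 9 samples. The log2 fold changes were -0.47, 0.68 and 0.21 (SE 0.74 each) for IgG Ab against Control, anti-S100a9 Ab against IgG Ab and anti-S100a9 Ab against Control, with adjusted p = 0.707, 0.517 and 0.905 (limma). With 95% intervals of -2.16 to 1.21, -1.01 to 2.37 and -1.48 to 1.89, each interval of Cd3e still holds 2-fold differences in both directions.

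Cd4 (chr6:124864692-124888221) encodes the coreceptor of helper and regulatory T cells, and some mouse dendritic cells and macrophages carry it as well. Its level was 7.83, 2.94 and 7.67 FPKM in Control and 3.18, 6.08 and 2.21 FPKM in IgG Ab. With anti-S100a9 Ab it was 15.4, 14.3 and 23.0 FPKM, a mean of 17.5 ± 4.72 FPKM (SD, n = 3) beside 3.83 ± 2.01 with IgG Ab and 6.15 ± 2.78 in Control. Every anti-S100a9 Ab sample lay above all 6 other samples, which overlapped each other. The log2 fold change of Cd4 was 2.26 (SE 0.45, 95% interval 1.23 to 3.29, adjusted p = 0.0157, limma) against IgG Ab. Against Control it was 1.59 (SE 0.45, unadjusted p = 0.00686, adjusted p = 0.301), which did not pass. Without anti-S100a9 Ab replicate 2 or replicate 3 the adjusted p of the comparison with IgG Ab was 0.0519 or 0.0534, so the call of Cd4 rests on both of these libraries, while its log2 fold change stayed between 1.94 and 2.65 whichever library was left out. IgG Ab and Control differed by -0.67 (SE 0.45, adjusted p = 0.358).

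The T cell, macrophage and dendritic cell marker lists were read beside Cd4, since these cells can carry CD4. The 7 T cell markers had a median log2 fold change of 0.40 in anti-S100a9 Ab against IgG Ab, with 0 of 7 called. Of 10 macrophage and monocyte markers 0 were called, with a median of 0.18, and their summed level was 327 to 641 FPKM with IgG Ab and 411 to 550 FPKM with anti-S100a9 Ab. Of 8 dendritic cell markers 0 were called, with a median of 0.65 and summed levels of 5.28 to 18.5 FPKM and 7.75 to 14.4 FPKM. None of the markers in these lists was at 0 in all samples of a group. At an unadjusted p under 0.05, 0 of the T cell markers, 2 of the macrophage and monocyte markers and 1 of the dendritic cell markers were higher with anti-S100a9 Ab. Of the 10 macrophage and monocyte markers 2, Adgre1 and Mertk, were higher in every anti-S100a9 Ab than in every IgG Ab sample, and 0 lower. Their means were 10.1 and 8.04 FPKM beside 5.04 and 3.50 FPKM. C1qa, C1qb and Cd14, the highest of the list, differed by -0.08, -0.05 and -0.42 on the log2 scale. Of all 15278 genes, 2278 were higher and 3700 lower at this threshold. In the related lists read below, 1 of 27 T cell receptor and T lineage genes was called higher with anti-S100a9 Ab than with IgG Ab (Cd28) and 1 lower (Lef1). Of 23 regulatory T cell and checkpoint genes 1 was called higher (Ikzf2) and 0 lower, where 6.72% of all genes were called higher and 14.4% lower. Of 6 smooth muscle genes 1 was called higher and 4 had an unadjusted p under 0.05, all higher, with a median of 1.42 and summed levels of 518 to 3251 FPKM with IgG Ab and 2246 to 4074 FPKM with anti-S100a9 Ab. The part of these differences in the level of Cd4 was not tested.

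Cd8a (chr6:71373427-71379173), the alpha chain of the coreceptor of killer T cells, was less abundant per length than Cd4 in every sample. It was 1.40, 0.145 and 1.15 FPKM in Control, 0.0866, 0.831 and 0.0606 FPKM in IgG Ab, and 1.18, 0.703 and 1.05 FPKM in anti-S100a9 Ab. IgG Ab replicates 1 and 3 lay below all other samples, but IgG Ab replicate 2 lay within the ranges of both other groups. The log2 fold change of Cd8a was -1.35 (SE 0.82, adjusted p = 0.303) in IgG Ab against Control, 1.80 (SE 0.82, adjusted p = 0.138) in anti-S100a9 Ab against IgG Ab and 0.45 (SE 0.82, adjusted p = 0.800) against Control (limma). Without IgG Ab replicate 2 the second of these was 2.61 with an adjusted p of 0.0375, so that single library decides the side of the threshold on which Cd8a falls.

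**Figure D3:**
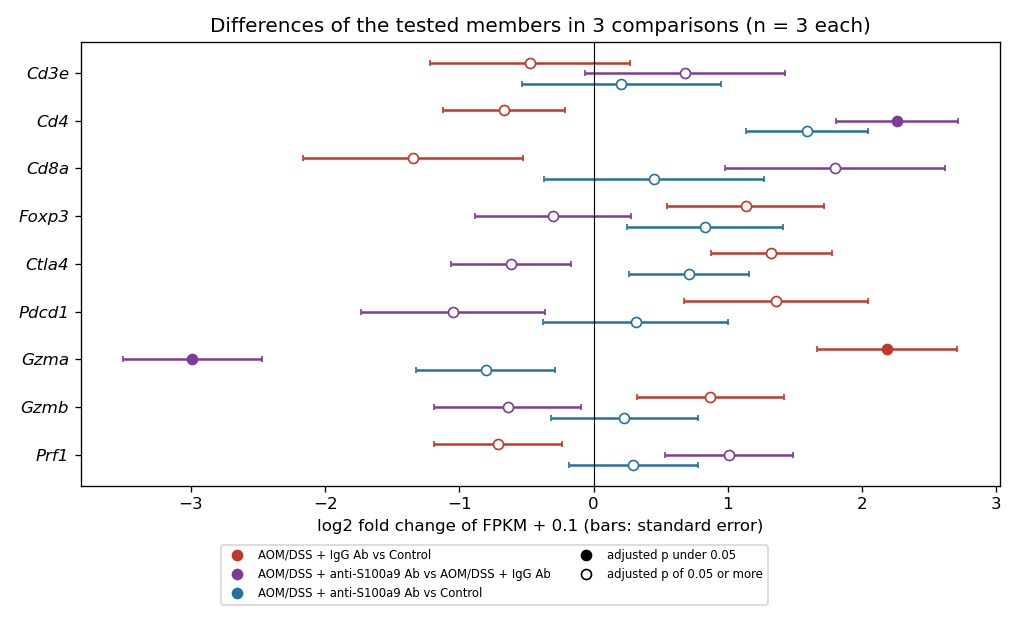
Log2 fold change of FPKM + 0.1 (horizontal axis, bars for the standard error) of the 9 tested members in the 3 comparisons, n = 3 samples per group, with filled points for an adjusted p under 0.05 (limma). Filled points are Gzma at 2.18 and -2.99 and Cd4 at 2.26.

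The regulatory and checkpoint genes Foxp3, Ctla4 and Pdcd1 had their highest means in IgG Ab, but none of the 3 was called. Ctla4 (chr1:60887000-60915832) was 1.79, 0.403 and 1.18 FPKM in Control, 2.61, 2.57 and 2.56 FPKM in IgG Ab, and 1.85, 1.18 and 2.04 FPKM in anti-S100a9 Ab. The IgG Ab samples lay close together (2.58 ± 0.0253 FPKM, SD, n = 3) and above all 6 others. The log2 fold change of Ctla4 was 1.32 (SE 0.45, unadjusted p = 0.0164, adjusted p = 0.0905) in IgG Ab against Control and -0.62 (SE 0.45, adjusted p = 0.329) in anti-S100a9 Ab against IgG Ab (limma). Pdcd1 (chr1:94038305-94052553), which encodes PD-1, was 0.861, 0.177 and 2.28 FPKM in Control, 3.10, 1.52 and 1.97 FPKM in IgG Ab, and 1.18, 0.632 and 1.20 FPKM in anti-S100a9 Ab. The IgG Ab samples of Pdcd1 lay above all anti-S100a9 Ab samples and overlapped Control through Control replicate 3. Its log2 fold change was 1.36 (SE 0.69, adjusted p = 0.223) against Control and -1.05 (SE 0.69, adjusted p = 0.282) from IgG Ab to anti-S100a9 Ab.

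Foxp3 (chrX:7573644-7595245), the defining factor of regulatory T cells, was 0.571, 0.118 and 0.746 FPKM in Control. It was 1.15, 1.66 and 0.494 FPKM in IgG Ab and 1.20, 0.577 and 0.687 FPKM in anti-S100a9 Ab. All 3 groups overlapped, with Control replicate 2 and IgG Ab replicate 3, both low in T cell markers, at the bottom of their groups. The log2 fold change of Foxp3 was 1.13 (SE 0.58, adjusted p = 0.230) in IgG Ab against Control, -0.31 (SE 0.58, adjusted p = 0.722) in anti-S100a9 Ab against IgG Ab and 0.83 (SE 0.58, adjusted p = 0.481) against Control (limma). Against Control, Ctla4 and Pdcd1 differed by 0.71 (adjusted p = 0.438) and 0.31 (adjusted p = 0.837) with anti-S100a9 Ab.

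As the T cell sum differed within groups, the members were also set against Cd3e of the same sample. As FPKM is per length, the log2 ratio of FPKM + 0.1 of 2 genes can be read within a sample. Foxp3 to Cd3e was -3.23, -2.40 and -3.20 in Control, -1.48, -1.43 and -1.10 in IgG Ab, and -2.25, -2.16 and -2.56 in anti-S100a9 Ab. The IgG Ab samples thus lay above all others on this ratio, by 1.61 over Control in the mean, although Foxp3 itself overlapped. Ctla4, Pdcd1 and Gzma to Cd3e were also higher in every IgG Ab than in every Control sample, by 1.80, 1.83 and 2.66. With anti-S100a9 Ab the ratio to Cd3e was lower in every sample than with IgG Ab for Foxp3 (by a mean log2 difference of -0.99), Ctla4 (-1.30), Pdcd1 (-1.73), Gzma (-3.67) and Gzmb (-1.32), and higher in every sample for Cd4 (1.58). In a two-sided exact permutation test each of these 10 differences had p = 0.1, the smallest that 3 against 3 samples allow, and 0.21 after Benjamini-Hochberg adjustment over 21 ratio comparisons, so none passed. All 10 share Cd3e and are not independent of each other. The share of all genes whose ratio to Cd3e separates the groups was not counted. The separation is thus not read as particular to the members. Cd3e itself differed by 0.68 (SE 0.74, not called) between antibodies, which enters each ratio. On their own, Foxp3, Ctla4, Pdcd1, Gzma, Gzmb and Cd4 differed by -0.31, -0.62, -1.05, -2.99, -0.64 and 2.26 between antibodies. Only Gzma and Cd4 of these were called. Cd8a to Cd4 overlapped between groups in all 3 comparisons, with means of -2.89 in Control, -3.57 in IgG Ab and -4.03 in anti-S100a9 Ab. Cd8a was as low as 0.0606 FPKM, and the order of these means turned with the pseudocount, to a difference of 0.060 in IgG Ab against Control with a pseudocount of 1 and of 0.14 between antibodies with 0.01.

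**Figure D4:**
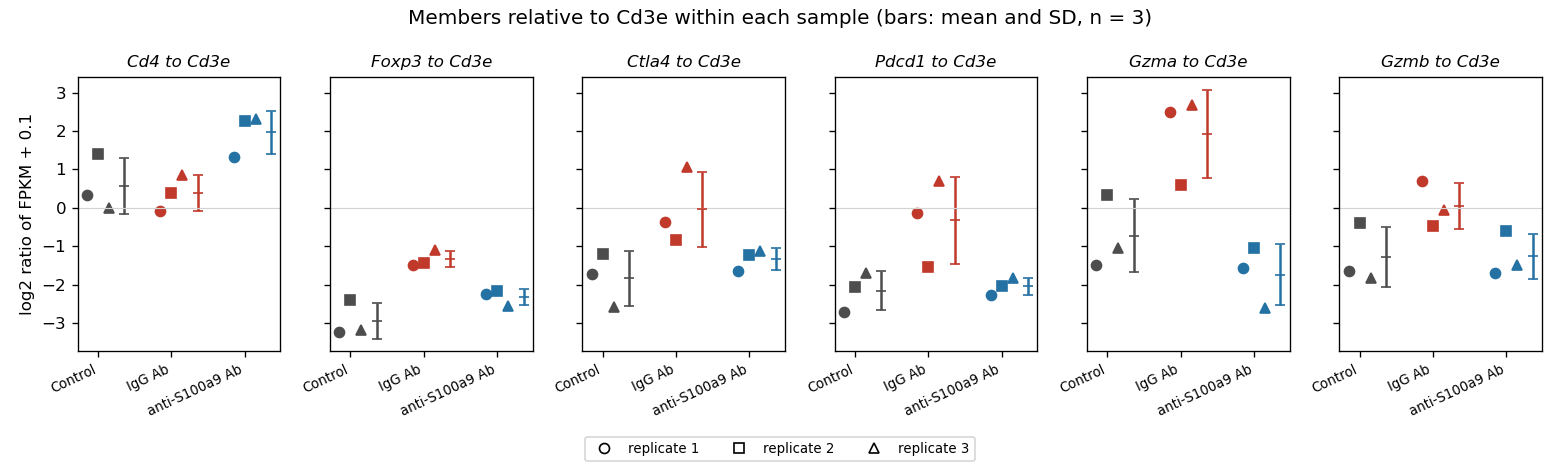
Log2 ratio of FPKM + 0.1 of 6 members to Cd3e of the same sample (vertical axis, shared by all panels), with circle, square and triangle for replicates 1, 2 and 3 and bars for the mean and SD. Foxp3 to Cd3e lies between -1.48 and -1.10 in IgG Ab, above every Control (at most -2.40) and every anti-S100a9 Ab sample (at most -2.16).

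The 250 bases before the start sites of the granule genes Gzma, Gzmb and Prf1 are shown because cytotoxic lymphocyte genes are known targets of the T-box factors T-bet and Eomes and of the RUNX factors. Of the 10 members 9 matched the RefSeq promoter table (GRCm38.p6), all but Cd4. Each sequence reads 5′ to 3′ on the strand of its gene and ends at the base before the start site, with matches to the T-box core AGGTGT and the RUNX core TGTGGT, on either strand, in capitals (ACACCT and ACCACA are the same cores on the other strand).
Gzma, chr13:113100982-113101231, minus strand: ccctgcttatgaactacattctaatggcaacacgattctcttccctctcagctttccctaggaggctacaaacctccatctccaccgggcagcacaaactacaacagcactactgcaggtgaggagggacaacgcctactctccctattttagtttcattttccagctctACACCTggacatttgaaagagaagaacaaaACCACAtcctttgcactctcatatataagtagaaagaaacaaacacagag
Gzmb, chr14:56262335-56262584, minus strand: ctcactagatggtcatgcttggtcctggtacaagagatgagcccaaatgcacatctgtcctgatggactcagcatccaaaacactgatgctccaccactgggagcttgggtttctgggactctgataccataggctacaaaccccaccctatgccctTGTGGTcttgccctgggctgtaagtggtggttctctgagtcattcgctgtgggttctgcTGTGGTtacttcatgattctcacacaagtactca
Prf1, chr10:61297586-61297835, plus strand: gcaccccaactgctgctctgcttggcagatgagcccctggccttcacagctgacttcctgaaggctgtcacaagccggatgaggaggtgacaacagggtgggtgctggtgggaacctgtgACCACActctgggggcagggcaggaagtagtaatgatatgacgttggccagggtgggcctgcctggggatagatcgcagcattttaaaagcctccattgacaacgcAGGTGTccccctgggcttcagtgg
In Gzma the T-box match begins 80 bases and the RUNX match 50 bases before the start site, and in Prf1 they begin 24 and 130 bases before it. Gzmb holds 2 RUNX matches and no T-box match. Over the 9 members, 4 held the T-box core (Gzma, Prf1, Cd3e and Ctla4) and 3 the RUNX core (Gzma, Gzmb and Prf1), beside 11.8% and 14.0% of 32851 promoters of the same length. The letters TATAAA on the strand of the gene stood in 2 members (Ifng, 30 bases before its start, and 1 of the 2 starts of Foxp3, 32 bases before it), beside 7.59% of all promoters. A match is a description of the letters and not a shown binding site.

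Gzma (chr13:113093825-113100981), which encodes granzyme A, a tryptase of killer cell granules, showed the widest range of the members above the filter, 29.5-fold over the 9 samples. It stood at 2.14, 1.35 and 3.68 FPKM in Control, a mean of 2.39 ± 1.18 (SD, n = 3). In IgG Ab it was 19.6, 7.08 and 8.08 FPKM (11.6 ± 6.96), and in anti-S100a9 Ab 1.99, 1.35 and 0.664 FPKM (1.33 ± 0.662). All IgG Ab samples lay above all others, with IgG Ab replicate 1 the highest, and the anti-S100a9 Ab and Control samples overlapped. The log2 fold change of Gzma was 2.18 (SE 0.52, 95% interval 1.00 to 3.36, adjusted p = 0.0312, limma) in IgG Ab against Control. It was -2.99 (SE 0.52, 95% interval -4.17 to -1.81, adjusted p = 0.0106) in anti-S100a9 Ab against IgG Ab, and -0.81 (SE 0.52, adjusted p = 0.447) against Control. The second call held whichever library was left out (adjusted p 0.00878 to 0.0437). The first did not: the adjusted p was 0.0887 without Control replicate 1, 0.108 without Control replicate 2, 0.0790 without IgG Ab replicate 1, 0.0548 without IgG Ab replicate 3, 0.0527 without anti-S100a9 Ab replicate 2 and 0.0614 when the fit held only the groups compared.

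Gzmb (chr14:56258838-56262260), granzyme B, which sets off caspases in the target cell, was 1.93, 0.776 and 2.07 FPKM in Control, 5.53, 3.29 and 1.13 FPKM in IgG Ab, and 1.81, 1.87 and 1.54 FPKM in anti-S100a9 Ab. IgG Ab replicates 1 and 2 were the highest of all samples, and IgG Ab replicate 3 was below every anti-S100a9 Ab sample, so the groups overlapped. The log2 fold changes of Gzmb were 0.87, -0.64 and 0.23 (SE 0.55 each), with adjusted p = 0.321, 0.405 and 0.851 (limma) in the same order of comparisons as above. IgG Ab replicates 1 and 2 were also the libraries with the highest mast cell sums, 195 and 255 FPKM over 10 mast cell markers beside 38.0 FPKM in replicate 3, at most 71.3 FPKM in Control and 35.1 to 46.2 FPKM with anti-S100a9 Ab. Mcpt1 and Mcpt2 gave 125 and 68.0 FPKM of the sum in IgG Ab replicate 2. Kit went the other way, at 2.55, 6.28 and 3.53 FPKM in IgG Ab beside 7.88, 9.59 and 5.63 FPKM in Control. Of the 10 markers, 1 was called higher in IgG Ab than in Control, and 1 higher and 1 lower with anti-S100a9 Ab than with IgG Ab. Mouse mast cells can make granzyme B, and the part of these cells in the values of Gzmb was not tested.

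Prf1 (chr10:61297833-61304680), perforin, had its lowest mean in IgG Ab, the group in which Gzma had its highest. It was 0.441, 0.276 and 0.316 FPKM in Control, 0.111, 0.386 and 0.0866 FPKM in IgG Ab, and 0.764, 0.209 and 0.489 FPKM in anti-S100a9 Ab. IgG Ab replicates 1 and 3 lay below all other samples, as they did for Cd8a, and IgG Ab replicate 2 lay within the other groups. The log2 fold changes of Prf1 were -0.71, 1.01 and 0.30 (SE 0.48 each), with adjusted p = 0.347, 0.149 and 0.774 (limma). The values are near the filter of 0.1 FPKM, and at this level the pseudocount shrinks the fold change.

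Ifng (chr10:118441046-118445892), interferon gamma, stayed below the filter and was not tested. It was listed at 0 in Control replicate 1 and at 0.0437 and 0.0402 FPKM in replicates 2 and 3. In IgG Ab it was 0.526 FPKM in replicate 2 and listed at 0 in replicates 1 and 3, and in anti-S100a9 Ab it was 0.171, 0.0350 and 0.0366 FPKM. By the estimated depth these values stand for about 15 fragments in IgG Ab replicate 2, 5 in anti-S100a9 Ab replicate 1, and 0 or 1 in the other 7 libraries. A level of 3 fragments corresponds to 0.101 to 0.132 FPKM here, and 2 of 9 libraries exceeded it. It is about the upper 95% limit of the expected count where 0 is counted, not a hard limit. Gapdh, Ppia and Rps18, which nearly every cell expresses strongly, reached at most 0.755, 0.974 and 0.391 FPKM, and Rps18 was at 0 in some libraries, so a 0 in these files is described only as listed at 0.

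Over all 9 samples the mean levels per length ranked Cd4 (9.17 FPKM), Gzma (5.10), Cd3e (4.18), Gzmb (2.22), Ctla4 (1.80), Pdcd1 (1.44), Foxp3 (0.800), Cd8a (0.734), Prf1 (0.342) and Ifng (0.0947). Within IgG Ab alone Gzma (11.6 FPKM) stood above Cd4 (3.83 FPKM) in every sample, and in anti-S100a9 Ab Cd4 (17.5 FPKM) stood above Gzma (1.33 FPKM) in every sample. Neighbours in the order of the means, such as Gzmb and Ctla4 or Foxp3 and Cd8a, overlapped over the samples. Counted by groups that did not overlap, 2 members (Gzma and Ctla4) were higher in IgG Ab than in Control, where 20.7% of all genes were. With anti-S100a9 Ab against IgG Ab 1 member (Cd4) was higher and 3 (Gzma, Ctla4 and Pdcd1) were lower in every sample, beside 18.5% and 28.5% of all genes. Against Control 1 member (Cd4) was higher in every anti-S100a9 Ab sample, beside 17.3% of all genes.

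The members' profiles over the 9 samples were compared by the root mean square difference of their centred log2(FPKM + 0.1) values, as a description with no test. The genes most like Cd3e, of 12552 genes with a mean of at least 1 FPKM, were Lck, the kinase bound to the coreceptors (0.21), Il27ra, an interleukin 27 receptor chain (0.22), and Cst7 (0.24). Most like Cd4 were Itga4, an integrin of leukocytes (0.36), Prkcb (0.37) and Dock10 (0.41), and most like Cd8a were Cd180 (0.29), a surface protein of B cells, Ly9 (0.32) and Pou2f2 (0.33). Most like Foxp3 were Ccl22 (0.33), a chemokine that attracts regulatory T cells, and Tnfrsf4 (0.39), the T cell costimulator OX40. The genes closest to Gzma, Klc3 (0.37), Aspscr1 (0.37) and Lhpp (0.44), are not known as lymphocyte markers, and no other member was closer to Gzma than Pdcd1 (1.01). Among pairs of members the closest were Foxp3 with Gzmb and with Ctla4 (0.49 each), Ctla4 with Pdcd1 (0.58), Ctla4 with Gzmb (0.64), Foxp3 with Pdcd1 (0.66) and Cd3e with Cd8a (0.68).

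B cell, lymphoid follicle and pan-leukocyte markers differed between libraries of the same group. Summed over 12 B cell and lymphoid follicle genes, Control held 448, 243 and 819 FPKM, IgG Ab 91.3, 328 and 252 FPKM, and anti-S100a9 Ab 647, 254 and 692 FPKM. The pan-leukocyte sum over 5 genes was 383, 120 and 580 FPKM, 110, 401 and 124 FPKM, and 406, 188 and 449 FPKM in the same order. Cd8a and Prf1 were low in IgG Ab replicates 1 and 3, where both sums were low, and all 9 tested members were at their lowest of the Control samples in Control replicate 2, where both sums were the lowest of that group. In IgG Ab replicate 1, where both sums were the lowest of the IgG Ab group, Gzma, Gzmb, Pdcd1 and Ctla4 were instead at their highest of all 9 samples. None of the 12 B cell and lymphoid follicle genes was called in any comparison, although 6 of 12 had an unadjusted p under 0.05 in anti-S100a9 Ab against IgG Ab, all higher. Their median log2 fold change was -2.04 in IgG Ab against Control and 2.65 in anti-S100a9 Ab against IgG Ab. Against Control it was 0.52 with anti-S100a9 Ab. Of all 15278 genes, 2278 were higher and 3700 lower by the unadjusted p in that comparison. The 7 neutrophil markers include S100a8 and S100a9, the latter the target of the antibody. Of the 7, 6 were called higher in IgG Ab than in Control, where 8.18% of all genes were. With anti-S100a9 Ab 5 were called lower than with IgG Ab, where 14.4% of all genes were. Ly6g went the other way, with means of 104 FPKM in Control, 72.4 FPKM in IgG Ab and 124 FPKM in anti-S100a9 Ab. Of 5 tested squamous epithelium genes 4 were called higher in IgG Ab than in Control (median log2 fold change 3.14). With anti-S100a9 Ab 4 were called lower than with IgG Ab (median -2.09), beside the same shares of all genes. Dsg3 and Krt6a, listed at 0 in all Control samples, would not have passed the filter without the IgG Ab samples. Their calls and these medians were thus partly set by the filter. The 6 genes of that list summed to 1.77 to 4.66 FPKM in Control, 21.9 to 50.2 FPKM in IgG Ab and 4.16 to 8.58 FPKM in anti-S100a9 Ab. The part of follicles, neutrophils, squamous epithelium or other cells in the levels of the members was not tested.

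Related genes from lists on the same biology were read beside the members. Of 27 measured genes of the T cell receptor and T lineage list, 1 was called in IgG Ab against Control (Lef1, higher) and 2 in anti-S100a9 Ab against IgG Ab (Cd28 higher, Lef1 lower), beside 11.2% and 21.1% of all genes. The list's median log2 fold change was -0.49 and 0.69 in these comparisons and 0.30 against Control, where limma called 0 and 0 had an unadjusted p under 0.05, with Cd28 at 0.92 (adjusted p = 0.445) and Il7r, the interleukin 7 receptor, at 0.72 (adjusted p = 0.458) nearest to it. Cd28, the costimulatory receptor of T cells, was 0.418, 1.85 and 0.269 FPKM with IgG Ab and 3.66, 3.08 and 3.48 FPKM with anti-S100a9 Ab, a log2 fold change of 2.28 (SE 0.59, adjusted p = 0.0299), without overlap. Against Control it overlapped, since Control replicate 1 (3.12 FPKM) lay above anti-S100a9 Ab replicate 2. Lef1, a transcription factor of T cells that epithelial tumours with active Wnt signalling express too, was 20.2, 8.55 and 4.47 FPKM with IgG Ab, 2.18, 0.609 and 1.92 FPKM in Control and 2.99, 0.738 and 1.60 FPKM with anti-S100a9 Ab, with log2 fold changes of 2.65 (adjusted p = 0.0402) and -2.50 (adjusted p = 0.0344). Gata3, the factor of type 2 helper cells, differed by 1.08 (adjusted p = 0.0778) in IgG Ab against Control and did not pass. The 1 call against Control was absent without Control replicate 1 or 3, IgG Ab replicate 1 or anti-S100a9 Ab replicate 3, and 2 genes were called without IgG Ab replicate 2. The 2 calls between antibodies fell to 0 without IgG Ab replicate 1 or any 1 of the anti-S100a9 Ab replicates and to 1 without IgG Ab replicate 3.

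Of 23 regulatory T cell and checkpoint genes beyond the members, limma called 0 in IgG Ab against Control, where 5 had an unadjusted p under 0.05, 3 higher and 2 lower. Of all 15278 genes, 2971 were higher and 1536 lower by the unadjusted p. The largest difference among the 5 was that of Tnfrsf9, the costimulator 4-1BB, at 2.24 on the log2 scale (adjusted p = 0.0636), while Cd160, an inhibitory receptor of killer cells, differed by -1.34 (adjusted p = 0.124). With anti-S100a9 Ab against IgG Ab 1 of 23 was called, where 21.1% of all genes were, and it was higher: Ikzf2, which encodes Helios of regulatory T cells, at 2.10, 2.97 and 1.84 FPKM beside 0.818, 1.32 and 0.716 FPKM (log2 fold change 1.21, SE 0.37, adjusted p = 0.0487). Btla, an inhibitory receptor shared by B and T cells, differed by 2.22 (adjusted p = 0.0510) and did not pass. Against Control limma called 0, and 2 had an unadjusted p under 0.05, Entpd1, the ectoenzyme CD39 (0.90, adjusted p = 0.278), and Ikzf4 (0.73, adjusted p = 0.301). The call of Ikzf2 sits at the threshold, and the count of this list between antibodies ran from 0 (without Control replicate 2 or any 1 of the anti-S100a9 Ab replicates) to 4 (without IgG Ab replicate 2), with 2 without Control replicate 1 or 3. In IgG Ab against Control it was 1 without IgG Ab replicate 1 and 2 without IgG Ab replicate 2. The share of all genes called in these fits is not given here.

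Genes of the cytotoxic granule and of natural killer cell receptors were read beside Gzma, Gzmb and Prf1. Of 28 tested genes of the cytotoxic granule and natural killer list (33 measured), 2 were called lower in IgG Ab than in Control, Ncr1 (NKp46) and Klrb1c (NK1.1), and 0 higher. With anti-S100a9 Ab against IgG Ab 4 were called higher, Ncr1, Klrb1c, Klrk1 (NKG2D) and Klre1, and 1 lower, Gzmc. Of all genes, 3.01% were called lower in IgG Ab than in Control, and 6.72% higher and 14.4% lower with anti-S100a9 Ab than with IgG Ab. With so few called genes, nothing is read from these counts as particular to the list. Ncr1 was 1.68, 1.20 and 1.42 FPKM in Control. With IgG Ab it was 0.0484 and 0.621 FPKM and, in replicate 3, listed at 0, and with anti-S100a9 Ab 1.17, 1.19 and 1.86 FPKM. Its log2 fold changes were -2.79 (SE 0.64, adjusted p = 0.0278) and 2.74 (SE 0.64, adjusted p = 0.0224), and the IgG Ab samples lay below all others. Klrb1c was at most 0.278 FPKM with IgG Ab, at least 0.503 FPKM in Control and at least 0.374 FPKM with anti-S100a9 Ab, with log2 fold changes of -1.85 (adjusted p = 0.0424) and 1.75 (adjusted p = 0.0356). Gzmc, a granzyme of the same chromosomal cluster as Gzmb, was 0.965, 1.41 and 0.101 FPKM with IgG Ab and listed at 0, 0.0413 and 0 FPKM with anti-S100a9 Ab, where the fitted log2 fold change of -2.61 (adjusted p = 0.0291) depends on the pseudocount. The receptor genes and the granzymes belong to families of similar sequence, and how reads shared between copies were counted is not given in the sources used here.

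These counts depended on single libraries. The share of all genes called without each library is not given here, so no such change is read as particular to a list. Without IgG Ab replicate 2, the IgG Ab library with the highest pan-leukocyte sum, 7 genes of the cytotoxic granule and natural killer list were called against Control and 9 between antibodies. Without Control replicate 1, 2 or 3 or IgG Ab replicate 1 the count against Control was 0, and it was 1 without IgG Ab replicate 3 or any 1 of the anti-S100a9 Ab replicates. Between antibodies it was 0 without anti-S100a9 Ab replicate 1 or 2 and 1 without anti-S100a9 Ab replicate 3 or IgG Ab replicate 1 or 3. Against Control limma called 0 genes of the list with anti-S100a9 Ab, and 1, Itga2, the integrin CD49b, had an unadjusted p under 0.05 (log2 fold change 1.86, adjusted p = 0.301), while Klre1 differed by 0.54 (adjusted p = 0.406).

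The genes of the induction, receptor and targets of Ifng were read in the same way. Of 23 measured genes of this list 1 was called in IgG Ab against Control, Il18rap, an interleukin 18 receptor chain, at 0.882, 0.844 and 1.41 FPKM beside 0.497, 0.405 and 0.351 FPKM (log2 fold change 1.12, SE 0.30, adjusted p = 0.0449). Ifngr1, a chain of the interferon gamma receptor, differed by -0.48 (adjusted p = 0.119). With anti-S100a9 Ab against IgG Ab 2 were called higher and 1 lower, so that 1 and 3 of 23 stand beside 11.2% and 21.1% of all genes. Il12rb2, the interleukin 12 receptor chain of type 1 helper and natural killer cells, was 0.331, 0.520 and 0.540 FPKM with anti-S100a9 Ab and 0.0958, 0.0798 and 0.0286 FPKM with IgG Ab (log2 fold change 1.75, SE 0.35, adjusted p = 0.0157). Jak1, a kinase of the receptor, was higher by 0.54 (adjusted p = 0.0486), and Ifngr2, the other receptor chain, was lower by 0.49 on the log2 scale (log2 fold change -0.49, adjusted p = 0.0368). Against Control limma called 0, and 5 had an unadjusted p under 0.05, all higher, among them Il12rb2 (1.10) and Jak2 (0.57), both with adjusted p = 0.301. By the unadjusted p, 16% of all genes passed in this comparison. The count in IgG Ab against Control was 0 without any 1 library other than IgG Ab replicate 2 and 4 without that one. The 3 calls between antibodies became 11 without IgG Ab replicate 2, 1 without Control replicate 2, IgG Ab replicate 1 or 3 or anti-S100a9 Ab replicate 1, and 0 without anti-S100a9 Ab replicate 2 or 3. Here too the share of all genes called in these fits is not given.

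**Figure D5:**
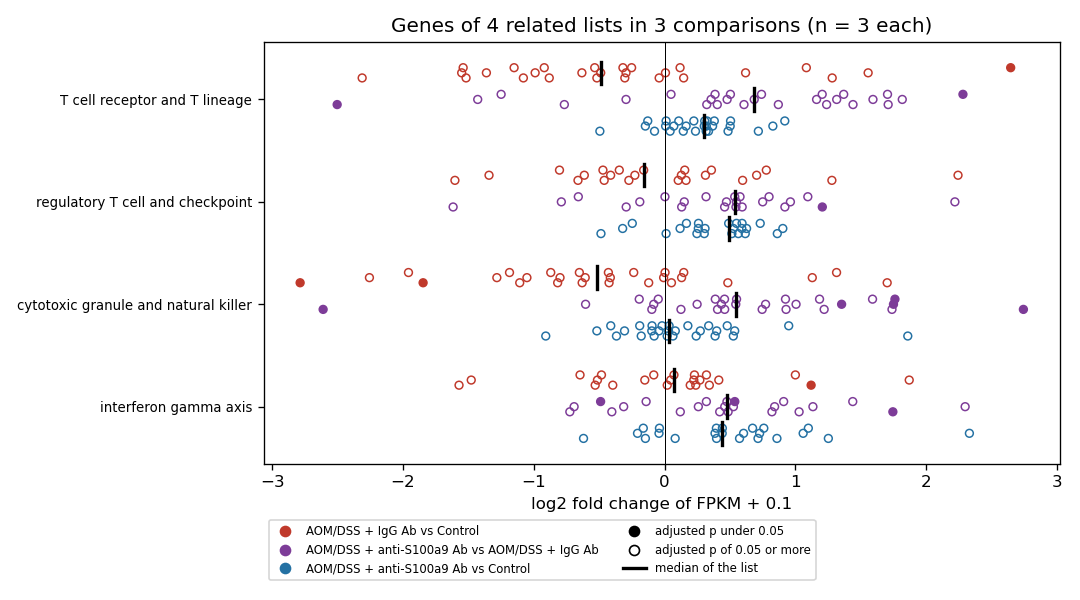
Log2 fold change of FPKM + 0.1 (horizontal axis) of each tested gene of 4 related lists in the 3 comparisons, n = 3 samples per group, with filled points for an adjusted p under 0.05 (limma) and black bars for the median of the list. In the cytotoxic granule and natural killer list the median is -0.52 in IgG Ab against Control and 0.55 in anti-S100a9 Ab against IgG Ab, and the filled points include Ncr1 at -2.79 and 2.74.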

How the data were processed

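RNA of 9 colorectal samples was sequenced. The authors deposited 1 file per sample, in which 21544 rows, each with a gene symbol, hold decimal values in the form of FPKM. No source used here states the unit, which was read from the values. The processing notes in the labels name TopHat, Cufflinks and HTSeq, with no versions, and the build GRCm38. Rows repeating a symbol (46) were summed. Genes needed 0.1 FPKM or more in 3 or more samples, which kept 15278, and log2(FPKM + 0.1) was fitted with limma 3.58.1 in R 4.3.3 (all 9 samples, intensity trend, 8.87 degrees of freedom, two-sided). This scale understates the change of low genes. The study tested counts, which were not used here. The labels call the replicates biological, and no 2 libraries held the same values. Depth was estimated from the steps between values under 0.06 FPKM and bears on counting error only. Positions are from GENCODE M21 and promoters from RefSeq. Named genes are the members, for each list and comparison the 2 called genes of largest change, completed by the smallest unadjusted p, and the 3 genes most like each member. Klrk1, Klre1, Klrb1c and Ifngr2 in the comparison of the antibodies were named after their values were seen. The members and lists were chosen with earlier results of these data known. Alternatives covered the pseudocount, filter, samples in the fit, replicate block, trend, scaling and each library left out. Tables and exact tests used Python 3.11.15, pandas 2.3.3, numpy 2.4.6 and scipy 1.17.1, and figures matplotlib 3.10.9. The fit was tested on simulated data.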

Additional observations from a re-analysis of the deposited data

How the results depend on the processing

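With 3 libraries per group and few fragments behind the lowest genes, small changes were not detectable. Under 9 alternatives that kept every library, the members called were the same in all 3 comparisons, except that 0 members were called in IgG Ab against Control when only those groups were fitted. Prf1 was not tested under the filter of at least 1 FPKM. With each library left out in turn, the number of members called ran from 0 to 1 in IgG Ab against Control, from 1 to 3 in anti-S100a9 Ab against IgG Ab, and was 0 throughout against Control. The libraries behind these changes are named beside Gzma, Cd4 and Cd8a in the report.

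The labels number the replicates alike in each group, but the deviations of samples with the same number correlated by -0.187 to 0.249, so the numbers were not taken as a pairing. With the replicate block, 1 member was called in IgG Ab against Control (Gzma, adjusted p = 0.0354, limma), 2 between antibodies (Cd4, 0.0280, and Gzma, 0.0150) and 0 against Control. The block lowered the calls of the cytotoxic granule and natural killer list against Control from 2 to 1 and of the interferon gamma list from 1 to 0. Other counts of the related lists that moved by over 1.5 times were as follows. In IgG Ab against Control, the T cell receptor and T lineage list went from 1 to 0 with no filter or only the groups compared, the regulatory T cell and checkpoint list from 0 to 1 with a pseudocount of 1, the cytotoxic granule and natural killer list from 2 to 1 with a pseudocount of 0.01 or a filter of 1 FPKM and to 0 with only the groups compared, and the interferon gamma list from 1 to 0 under each of these last 3 and both scalings. Between antibodies, the regulatory T cell and checkpoint list went from 1 to 0 with a pseudocount of 0.01 or either other filter and to 3 with either scaling, the cytotoxic granule and natural killer list from 5 to 1 with a filter of 1 FPKM and to 3 with only the groups compared, and the interferon gamma list from 3 to 1 with no intensity trend or a common FPKM total.

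Scaling to a common FPKM total moved the median log2 fold change of all genes from 0.04 to 0.23 in anti-S100a9 Ab against Control, and no member's direction flipped under either scaling. The split of higher against lower calls over all genes, 1026 against 2193 between antibodies, was 990 against 1103 with that scaling and 1389 against 1706 with quantile normalization, which also gave 947 against 631 in place of 1250 against 460 for IgG Ab against Control.

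Directions of differences that did not pass turned in some fits. With a library left out, the log2 fold change ranged from -1.34 to 0.084 for Cd3e in IgG Ab against Control, from -0.66 to 0.72 for Cd3e, -0.38 to 0.93 for Cd8a, -0.50 to 1.05 for Pdcd1, -0.19 to 0.46 for Gzmb and -0.042 to 0.70 for Prf1 in anti-S100a9 Ab against Control, and from -0.74 to 0.038 for Foxp3 between antibodies. The ratio to Cd3e ranged from -0.48 to 0.22 for Cd4 in IgG Ab against Control and from -0.17 to 0.33 for Pdcd1 and -0.31 to 0.47 for Gzmb in anti-S100a9 Ab against Control. With a pseudocount of 1, Pdcd1 to Cd3e was -0.048 in anti-S100a9 Ab against Control and Cd8a to Cd4 was 0.060 in IgG Ab against Control. With a pseudocount of 0.01, Cd8a to Cd4 was 0.14 between antibodies. The cause was not tested.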
